A study of Homo sapiens with 90 samples.

Results

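N87 cells, an established gastric carcinoma line in which the receptor tyrosine kinase gene ERBB2 is amplified, were kept in lapatinib for 7 days and set against the same line after 48 h of the same drug. Lapatinib inhibits the kinases of EGFR and ERBB2, and was given at 100 nM at both times. The members were chosen by drug, line and time alone, with every gene included: 3 libraries of lapatinib for 7 days and 3 of lapatinib for 48 h, 6 of the 90 libraries of a series that covers 6 cancer lines in 5 arms of 3 libraries. As a further level, 3 libraries of N87 cells in the solvent DMSO (0.1%) for 48 h are given beside them. The other N87 arms received THZ1, an inhibitor of the transcription kinase CDK7, at 25 nM with or without lapatinib for 48 h; they entered the estimate of the spread and are shown for the RNA 7SK only. All groups were grown in RPMI with 10% serum. The series holds no library of cells in DMSO for 7 days, so time in culture and time in drug cannot be told apart. The labels do not say whether the replicates came from separate cultures, so p-values measure the spread between these libraries, which may be technical. In RNA from a whole culture, fewer cells that carry a transcript and less of it per cell cannot be told apart.

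ERBB2 is the receptor of its family with no known ligand; it pairs with EGFR or ERBB3 and signals through the RAS-MAPK and PI3K-AKT pathways. Blocking its kinase lowers transcription of growth and cell cycle genes, and loss of AKT activity lets FOXO factors enter the nucleus and raise genes that include receptors such as ERBB3. Cells that live through the first days of such a drug are often studied as drug-tolerant cells.

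Counts assigned to genes were 12.41, 6.47 and 12.39 M in 7-day replicates 1, 2 and 3, 9.50 to 10.10 M in the 48-h libraries and 10.29 to 11 M in the DMSO libraries. Levels below are in counts-per-million (CPM), scaled by the trimmed mean of M values, and are compared between groups for 1 gene at a time. ERBB2 itself, the target of the drug, had 32823, 33046 and 30896 CPM at 7 days, 26968, 25118 and 26023 CPM at 48 h and a mean of 17353 CPM in DMSO. Of 22 gastric and secretory genes, TFF1, TFF2, TFF3, GKN2, CTSE and CLDN18 were at 0 in all 6 lapatinib libraries. TFF3, GKN2 and CLDN18 were at 0 in the DMSO libraries too, and TFF1, TFF2 and CTSE were not at 0 in all of them. Other genes of that list were present, with a summed level of 2899 to 3059 CPM at 7 days and 2042 to 2191 at 48 h. The epithelial genes EPCAM, CDH1, KRT8, KRT18 and KRT19 were present. Markers of other cell types stayed low: the summed level of the blood list was 10.6 to 12.8 CPM at 7 days, 7.69 to 10.1 at 48 h and 6.42 to 7.44 in DMSO. That of fibroblast and endothelial genes was 2.45 to 3.85 CPM at 7 days, 8.11 to 8.65 at 48 h and 2.89 to 3.21 in DMSO, and that of neuroendocrine genes 1.22 to 1.94 CPM at 7 days, 1.59 to 2.32 at 48 h and 1.14 to 1.75 in DMSO. HBB, KDR and NEUROD1 were at 0 in those libraries. Each of these lists had 1 gene with enough counts to test: LYZ rose (log2 0.47, and not called, at 0.42 to 0.46, without 7-day replicate 2 or 3 or 48-h replicate 1 or 2), VWF fell (log2 -1.40) and SYP had a difference of -0.47 that did not pass. Their part in the results was not tested.

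7-day replicate 1 stood apart from replicates 2 and 3. Of 11358 genes with at least 5 CPM, 118 were at least 1.5-fold above and 38 at least 1.5-fold below both other 7-day libraries in it (1.37% in all), against 0.528% for replicate 2, 0.238% for replicate 3 and 0.19% to 0.325% for the 48-h and DMSO libraries. FOSL1, a subunit of the AP-1 factor, had 251 CPM in 7-day replicate 1 and 64.8 and 73.9 CPM in the other 7-day libraries, against 47.4, 70.8 and 62.7 CPM at 48 h. Among genes picked after their values were seen, EGR3, EREG, AREG, HBEGF, DUSP5, NRARP and TIPARP were high in that library. FOS, DUSP1, JUNB, JUN, AXIN2 and MYC were low in it, so immediate-early genes lay on both sides. Values without that library are given where a named gene's call was gained or lost or its called change moved by over 1.5 times, and values without another library where a named call was lost.

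Another difference touched classes of small RNA and processed pseudogenes. The RNA 7SK, which holds the elongation kinase P-TEFb in an inactive complex, had 4.67, 2.17 and 2.82 CPM of each library's unscaled total at 7 days, against 248, 239 and 227 at 48 h and 101, 55.1 and 87.1 in DMSO. All 12 N87 libraries taken at 48 h, whatever the arm, held 55.1 to 311, while the 75 libraries of the other lines held 0.303 to 62.7. A549 showed a like difference at a lower level, with 1.12 to 1.61 at 7 days of GSK1120212, 34.7 to 57.9 at 48 h of it and 16.1 to 20 in DMSO. Small nuclear RNAs summed to 0.161 to 0.564 CPM at 7 days, 4 to 6.66 at 48 h and 1.17 to 3.37 in DMSO, and processed pseudogenes to 1877 to 1913 at 7 days, 2933 to 3151 at 48 h and 2706 to 3140.4 in DMSO. The nuclear RNA MALAT1 had 1062 to 1506 CPM at 7 days and 2191 to 2989 at 48 h, but 818 to 1136 in DMSO, so it did not set the 7-day libraries apart from all others. Protein-coding genes took 961224 to 963927 CPM at 7 days, 947583 to 950342 at 48 h and 959388 to 965001 in DMSO. Small RNAs are sensitive to how RNA is purified and libraries are made, and such a difference and the time point cannot be told apart in these libraries.

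**Figure D1:**
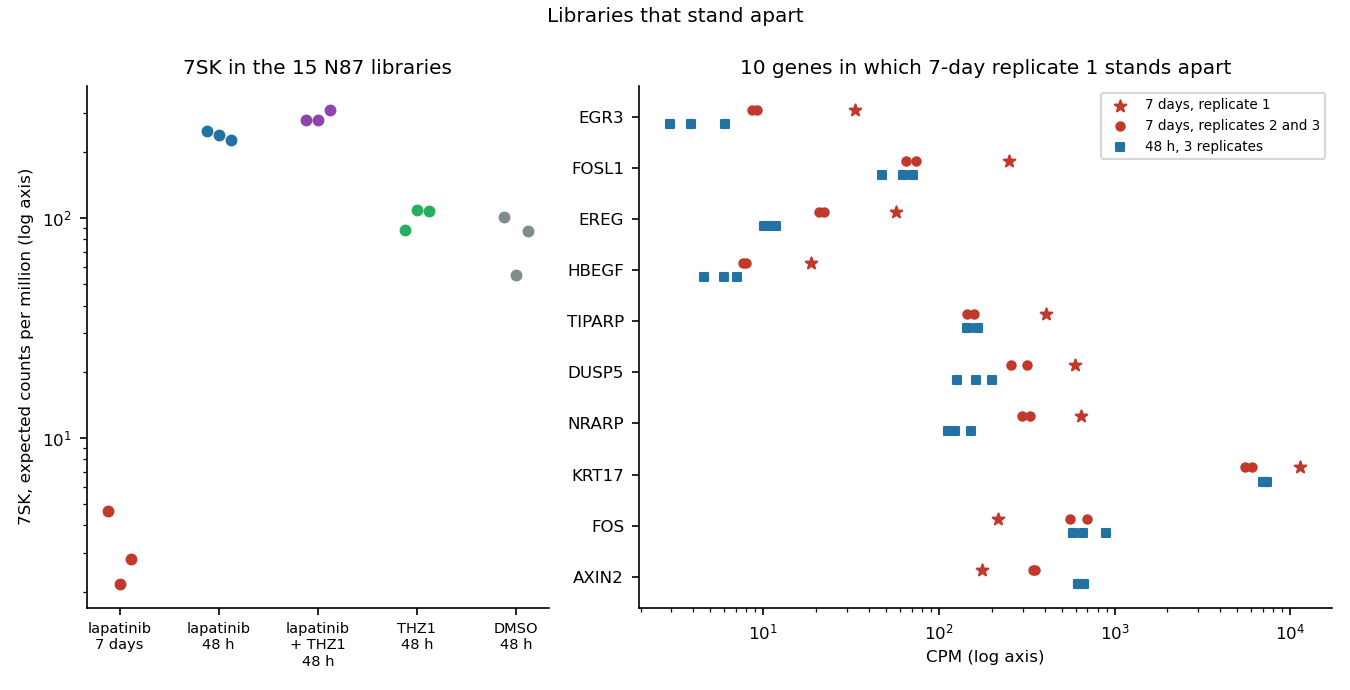
Left, 7SK in each N87 library in CPM of the unscaled library total (log axis), in the arms lapatinib 7 days, lapatinib 48 h, lapatinib with THZ1, THZ1 and DMSO, and right, CPM (log axis) of 10 genes chosen after their values were seen, with a star for 7-day replicate 1, circles for 7-day replicates 2 and 3 and squares for the 48-h libraries. 7SK was at 2.17 to 4.67 CPM at 7 days and at 55.1 or more in every 48-h arm; in the right panel the star lies away from both circles.

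Of 15370 genes tested with edgeR's quasi-likelihood test, 6553 (42.6%) were called between 7 days and 48 h of lapatinib at an adjusted p under 0.05 (Benjamini-Hochberg), 3431 higher (22.3%) and the others lower (20.3%) at 7 days. Most of these differences were small. Counts called in each gene list below are to be read beside the shares of 22.3% and 20.3%. A change of at least 2-fold was called for 843 genes (5.48%), 367 higher (2.39%) and 476 lower (3.10%), and the median log2 change of all tested genes was 0.01. In 7631 genes (49.6%) the 3 libraries of each group did not overlap. For scale, the 7-day libraries differed from DMSO in 10904 genes (70.9%) and the 48-h libraries in 10894 (70.9%). These comparisons share libraries, so their values are given side by side only. Among genes of another class than protein-coding, or with none in the annotation, 86 rose and 184 fell at least 2-fold of 2409 tested, against 281 and 292 of 12961 protein-coding genes.

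The 15 genes with the largest increase were led by PPP1R1B, a regulated inhibitor of protein phosphatase 1 whose gene neighbours ERBB2 on chromosome 17. It had 85.3, 97.3 and 83.4 CPM at 7 days against 9.9, 7.46 and 5.64 CPM at 48 h, and a mean of 10.1 CPM in DMSO. The 7-day libraries were far above both other groups, whose levels lay close together. The log2 change was 3.53 ± 0.11 (SE; adjusted p = 4.4e-15), 11.5-fold. CDH17, a cadherin of intestinal epithelium, had 8.48, 9.48 and 8.56 CPM at 7 days against 0.737, 0.796 and 0.875 CPM at 48 h (log2 3.43 ± 0.36, adjusted p = 1.89e-07; DMSO mean 0.334 CPM). The uroplakin UPK1A, a membrane protein of the urothelial surface, had 35.8, 37.3 and 34.7 CPM against 4.63, 5.27 and 4.67 CPM at 48 h (log2 2.88 ± 0.13, adjusted p = 6.52e-13), with 0.295 CPM in DMSO. UPK1A was low in DMSO, higher at 48 h and highest at 7 days, while CDH17 at 48 h did not differ from DMSO by the test (log2 1.24 ± 0.63, adjusted p = 0.0851).

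IGFBP3, which binds insulin-like growth factors outside the cell, had 1441, 1483 and 1328 CPM at 7 days, 348, 328 and 317 CPM at 48 h and a mean of 54.8 CPM in DMSO (7 days against 48 h, log2 2.10 ± 0.05, adjusted p = 1.07e-16, 4.28-fold), the order seen for UPK1A. Not every gene of the 15 followed that order. TLR4, the receptor for bacterial lipopolysaccharide, had 18.7, 17 and 14.6 CPM at 7 days against 2.42, 4.38 and 3.31 CPM at 48 h, and 6.99 CPM in DMSO, so that its lowest level was at 48 h. Its log2 change was 2.30 ± 0.19 (adjusted p = 6.85e-09). CLEC7A, the receptor dectin-1 for fungal glucans, had 12, 9.94 and 13.1 CPM against 1.58, 2.88 and 2.43 CPM at 48 h. The membrane proteins MS4A8 (log2 3.16) and MS4A15 (2.48), the clock repressor BHLHE41 (2.75), the vesicle protein SYTL5 (2.45), the lipid kinase PIP5K1B (2.44), the ciliary protein PKHD1 (2.14) and carbonic anhydrase CA2 (2.11) rose as well. MS4A15 had 11.4, 9.18 and 7.54 CPM at 7 days and 1.47, 1.89 and 1.65 CPM at 48 h, and was at 0 in all 3 DMSO libraries. JMJD7 (2.91 ± 0.77, adjusted p = 0.00472) overlaps PLA2G4B, and its count is uncertain for that reason. EGR3, a zinc finger factor of the immediate-early class, completed the 15 at 2.03 ± 0.42 (adjusted p = 0.000552), and stood at 1.09 (adjusted p = 0.00367) without 7-day replicate 1.

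Among the 15 genes with the largest decrease, 7SK came first at log2 -6.12 ± 0.21 (adjusted p = 1.81e-14), with the limit given above. Keratins and barrier proteins of stratified epithelium made up much of the remainder. KRT6A, a keratin of activated epidermis, had 132, 94.8 and 107 CPM at 7 days against 1458, 1383 and 1379.8 CPM at 48 h and 4227, 4276 and 4209 CPM in DMSO. The 3 groups were far apart, with the 7-day libraries lowest. KRT6A fell by 3.65 ± 0.08 on the log2 scale (adjusted p = 1.66e-17), 12.5-fold. KRT5, the keratin of basal cells, had 14.1, 9.79 and 9.35 CPM against 88.4, 87.3 and 80.8 CPM at 48 h (log2 -2.92 ± 0.10, adjusted p = 8.49e-15). The peptidase KLK14, which acts in epidermal shedding, had 3.96, 3.52 and 4.64 CPM against 29.5, 23.8 and 26.2 CPM at 48 h (log2 -2.67 ± 0.14, adjusted p = 5.68e-12), with 227 CPM in DMSO. IGFL1, a small secreted protein of skin, had 2.75, 2.14 and 2.75 CPM against 32.7, 29.3 and 27.1 CPM at 48 h and 64.1 CPM in DMSO.

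Another set of these genes was higher at 48 h than in both other groups. CST1, a secreted inhibitor of cysteine proteases, had 1.53, 1.53 and 1.18 CPM at 7 days, 19.2, 20.3 and 19.8 CPM at 48 h and a mean of 3.41 CPM in DMSO (7 days against 48 h, log2 -3.82 ± 0.15, adjusted p = 1.12e-13). HSPB8, a small heat shock protein, had 13.3, 7.04 and 7.86 CPM against 75.1, 77.2 and 73.8 CPM at 48 h and 25.9 CPM in DMSO (log2 -2.95 ± 0.12, adjusted p = 3.49e-13). CD79A, a subunit of the B cell receptor in lymphocytes, had 0.485, 0.765 and 0.471 CPM against 10.9, 10.3 and 9.33 CPM at 48 h and 1.5 CPM in DMSO. The hair keratin KRT84 (log2 -4.41), the cornified envelope proteins RPTN (-3.43) and TCHHL1 (-3.08) and the hair keratin KRT34 (-2.84) fell too. The ciliary microtubule protein RP1 (-2.45) also fell, but its 48-h level did not differ from DMSO by the test (log2 0.23, adjusted p = 0.195). The imprinted noncoding RNA H19 fell by 3.08 and was lower at 48 h than in DMSO (means of 7.56 and 11.8 CPM). RGPD5 (-3.03 ± 0.62, adjusted p = 0.000524) belongs to a family of near-identical copies, so its count is uncertain.

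**Figure D2:**
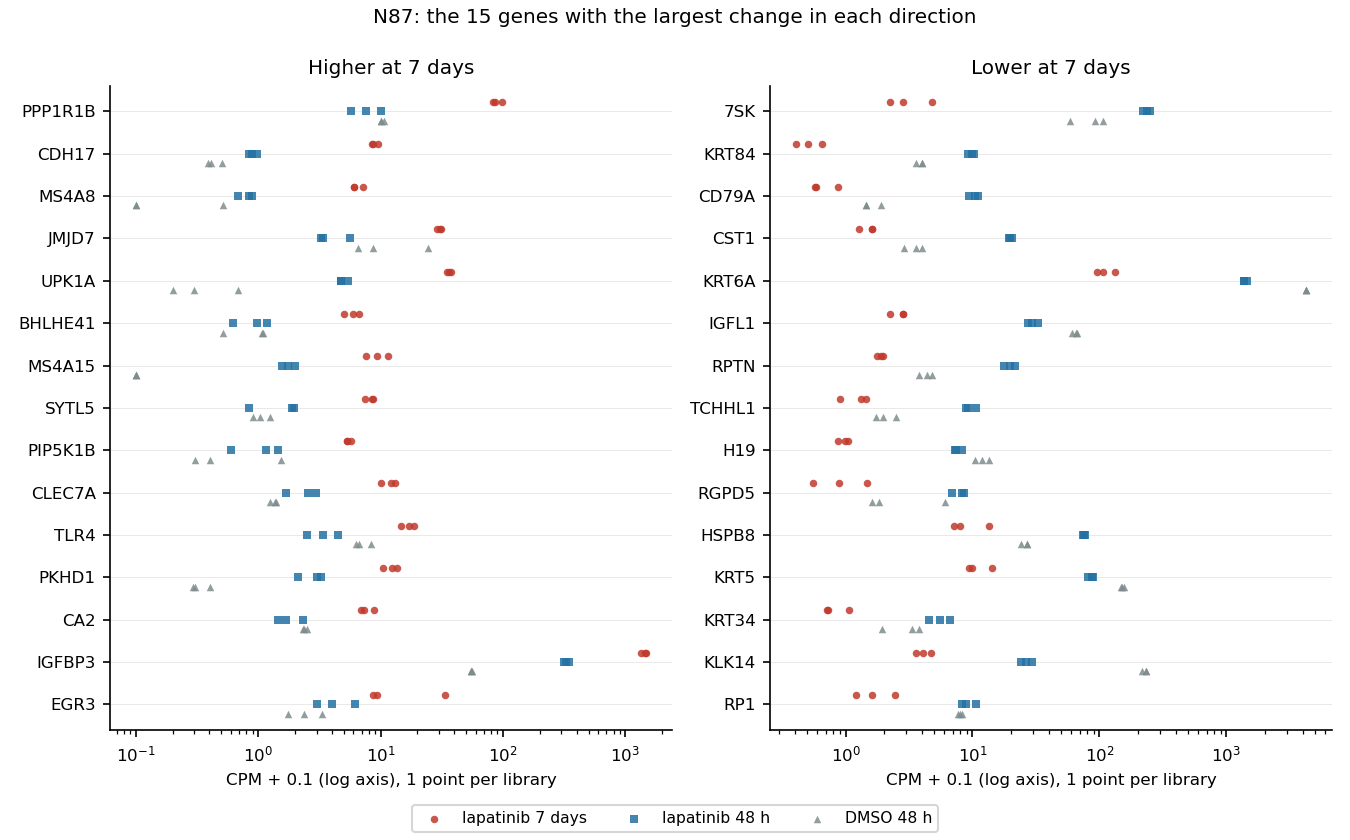
CPM per library (log axis, with a small constant added) of the 15 genes with the largest increase and the 15 with the largest decrease at 7 days against 48 h, for lapatinib 7 days, lapatinib 48 h and DMSO. No 7-day library overlaps a 48-h library in any of the 30, which the rule that chose them required; the DMSO libraries lie on either side.

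Most squamous and barrier genes were lower at 7 days. The list holds 24 genes for keratins, desmosomes, kallikreins and cornified envelope proteins. Of 18 tested, 12 fell and 3 rose, against 20.3% and 22.3% of all genes, and 7 fell at least 2-fold. The median log2 change was -0.82, against 0.01 for all genes. The list was drawn up with earlier results of these data known. KRT16, partner of KRT6A in activated epidermis, had 74.1, 36.6 and 43.1 CPM at 7 days against 233, 234 and 225 CPM at 48 h and a mean of 192 CPM in DMSO (log2 -2.13 ± 0.14, adjusted p = 2.25e-10). The small proline-rich proteins of the cornified envelope fell too. SPRR3 had 15.3, 10.9 and 12.7 CPM against 66.3, 61.9 and 59.3 CPM at 48 h (log2 -2.23 ± 0.09, adjusted p = 2.84e-13), and SPRR1A had 3.8, 4.13 and 3.61 CPM against 19.1, 14.3 and 19.1 CPM (-2.20 ± 0.16, adjusted p = 1.76e-09). Both were higher at 48 h than in DMSO, where they averaged 43.2 and 9.32 CPM. SPRR1B was near the floor at 7 days, with 1.45, 0 and 0.629 CPM against 2.74, 2.29 and 3.21 CPM at 48 h (log2 -1.76, adjusted p = 0.00309, and -2.68 without replicate 1). KRT14 (-1.34), the desmosomal cadherin DSG3 (-0.99), the surface protein LY6D (-0.95), KRT13 (-0.70), KLK7 (-0.67) and KLK11 (-0.45) completed the 12; KLK7 was not called without 48-h replicate 3 (-0.48, adjusted p = 0.0727), and KLK11 was at -0.30 without 7-day replicate 1.

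KRT15, a keratin of basal and progenitor cells, went the other way. It had 193, 214 and 231 CPM at 7 days against 86.7, 93 and 90.9 CPM at 48 h and a mean of 54.7 CPM in DMSO (log2 1.24 ± 0.07, adjusted p = 5.23e-11). KLK6 (0.37) and KLK10 (0.15, and 0.23 without 48-h replicate 1) rose by less. KRT17 differed among the 7-day libraries, with 11446, 5527 and 6065 CPM against 7203, 7402 and 7044 CPM at 48 h. Its log2 change of 0.09 did not pass, and without 7-day replicate 1 it was -0.26 (adjusted p = 0.000104). Without that replicate IVL, the envelope protein involucrin, was called as well (-0.50, against -0.26 and no call with it), as was KRT6B (-1.57, against -0.61 and no call), and the list stood at 15 lower and 3 higher of 18, median -0.93. KRT6A and KRT6B, KRT14, KRT16 and KRT17, and SPRR1A and SPRR1B resemble each other closely in sequence, so how reads were shared among them is uncertain.

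Promoter sequences of 16 of the 24 genes were in the RefSeq table (GRCh38.p14, 250 bases before each start). The AP-1 motif TGACTCA, or TGAGTCA on the other strand, was found in those of IVL, SPRR1A, SPRR1B and SPRR3, 4 of 16, against 1476 of 35116 promoters (4.2%) in the table. The SPRR promoters are shown since these 3 neighbouring genes of chromosome 1 fell together; they were picked after their values were seen. Capitals mark the AP-1 motif, a TATAAA box where present and, in SPRR1B, the forkhead motif GTAAACA.
SPRR1A: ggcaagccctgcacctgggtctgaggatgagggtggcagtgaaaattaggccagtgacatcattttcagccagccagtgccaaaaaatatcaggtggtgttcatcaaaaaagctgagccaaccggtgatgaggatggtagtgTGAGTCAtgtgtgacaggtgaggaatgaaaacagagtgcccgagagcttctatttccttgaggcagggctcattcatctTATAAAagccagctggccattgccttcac
SPRR1B: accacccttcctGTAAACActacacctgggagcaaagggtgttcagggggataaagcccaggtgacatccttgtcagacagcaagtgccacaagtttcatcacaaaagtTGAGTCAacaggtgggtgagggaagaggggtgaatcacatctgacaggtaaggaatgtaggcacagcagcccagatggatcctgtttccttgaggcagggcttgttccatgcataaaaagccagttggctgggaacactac
SPRR3: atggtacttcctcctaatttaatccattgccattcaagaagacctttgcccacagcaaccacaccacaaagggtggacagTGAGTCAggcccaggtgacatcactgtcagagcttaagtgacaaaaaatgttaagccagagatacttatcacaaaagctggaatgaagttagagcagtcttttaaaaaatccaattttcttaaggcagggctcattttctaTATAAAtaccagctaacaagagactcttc
They lie at chr1:152983831-152984080, chr1:153030953-153031202 and chr1:153001499-153001748, all on the plus strand, in the order printed. The AP-1 motif starts at -108 in SPRR1A, -141 in SPRR1B and -170 in SPRR3 relative to the transcription start, and TATAAA at -29 in SPRR1A and SPRR3. None of the 9 matched promoters of the 15 genes with the largest increase, and none of the 11 of those with the largest decrease, held the AP-1 motif. Of the other motifs searched on both strands, CACGTG (E-box, 6.34% of all promoters) was in BHLHE41 and GGAAGTG (ETS, 9.28%) in TLR4, DSG3 and KLK10. A match is a description of the sequence and not evidence of binding.

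**Figure D3:**
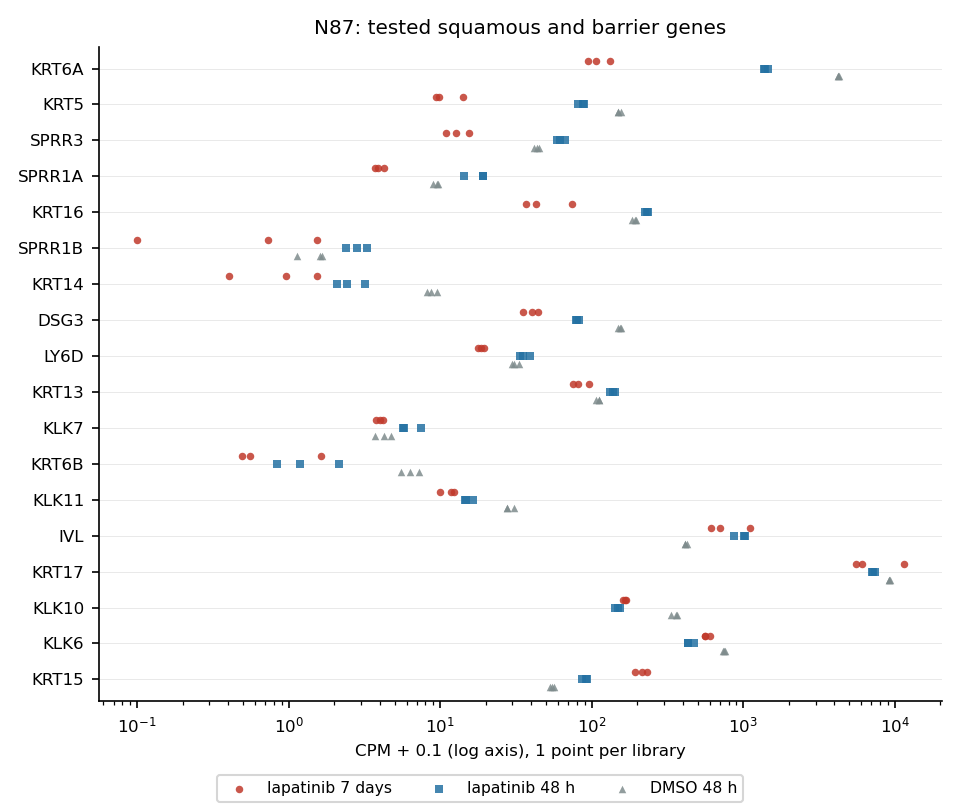
CPM per library (log axis, with a small constant added) of the 18 tested squamous and barrier genes, ordered by their change at 7 days against 48 h, for lapatinib 7 days, lapatinib 48 h and DMSO. KRT6A and KRT5 show 3 separate levels with 7 days lowest, and KRT15 runs the other way; in KRT17 a 7-day library lies above all 48-h libraries and the other two below.

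Cell cycle genes, which the drug had lowered by 48 h, were somewhat higher at 7 days, and still far below DMSO. Of 24 tested genes of G1/S and DNA replication, 17 rose and 0 fell, with a median log2 change of 0.47. Against DMSO the median of these genes was -1.61 at 7 days and -2.08 at 48 h. Their summed level was 921 to 935 CPM at 7 days, 624 to 689 CPM at 48 h and 2624 to 2722 CPM in DMSO. RRM2, the small subunit of ribonucleotide reductase, had 46.4, 43.1 and 46.2 CPM at 7 days against 20.5, 19.7 and 19.2 CPM at 48 h and a mean of 132 CPM in DMSO (2.3-fold, adjusted p = 1.52e-11). The 3 groups did not overlap, with 7 days between the other two. CDC45, part of the replicative helicase, had 12.2, 12.5 and 13 CPM against 6.21, 6.56 and 5.25 CPM at 48 h and 41.1 CPM in DMSO (1.07 ± 0.13, adjusted p = 1.31e-06). Thymidylate synthase TYMS (0.90), the helicase factor GINS2 (0.81), the factor E2F1 (0.73), the licensing factor CDC6 (0.70) and the sliding clamp PCNA (0.70) rose. The helicase subunit MCM2 (0.11) and the cyclin CCNE1 (-0.12) did not pass.

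Genes of mitosis moved less. Of 24 tested, 14 rose and 2 fell, with a median of 0.26, and their median against DMSO was -1.87 at 7 days and -2.11 at 48 h. CDK1, the mitotic kinase, had 37.1, 36.6 and 33.3 CPM at 7 days against 18.8, 22.9 and 19.7 CPM at 48 h and a mean of 87.5 CPM in DMSO (log2 0.79 ± 0.08, adjusted p = 1.55e-07). The factors MYBL2 (0.78) and FOXM1 (0.47) and topoisomerase TOP2A (0.35) rose too. CENPF, a kinetochore protein, fell, with 59.8, 58.4 and 62.2 CPM against 81.8, 75.8 and 78.4 CPM (-0.38), while CENPE (-0.25) was not called without 7-day replicate 1 or 2 or 48-h replicate 1 or 2 (-0.20 to -0.15). MKI67, the proliferation marker Ki-67, had 141, 136 and 142 CPM at 7 days against 138, 128 and 133 CPM at 48 h and 574 CPM in DMSO. Its log2 change of 0.07 did not pass (adjusted p = 0.224), and was called without 48-h replicate 1 (0.15, adjusted p = 0.0228) or 7-day replicate 2 (0.13, adjusted p = 0.0498). AURKB (0.50, adjusted p = 0.0371) was not called without 7-day replicate 1 (0.34, adjusted p = 0.197) or 48-h replicate 2 or 3 (0.46 and 0.49). Homologous recombination genes followed, with 10 of 16 higher, 0 lower and a median of 0.35, among them BRIP1 (0.74) and EXO1 (0.69). BRCA1 (0.32) lost its call without 7-day replicate 1 (adjusted p = 0.0674) or 3 (0.30) or 48-h replicate 2 (0.31).

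Of 18 tested D cyclins, CDK inhibitors and quiescence genes, 7 rose and 4 fell. CCND1, cyclin D1, had 539.5, 604 and 611 CPM at 7 days against 579, 666 and 669.9 CPM at 48 h and 852 CPM in DMSO, a difference that did not pass (-0.13, adjusted p = 0.0772) and was called without 48-h replicate 1 (-0.14, adjusted p = 0.0388). The CDK inhibitor CDKN2B had 196, 206 and 203 CPM at 7 days against 243, 224 and 229.7 CPM at 48 h and 50.8 CPM in DMSO (-0.20, adjusted p = 0.00214), a call lost without 7-day replicate 1 (-0.13, adjusted p = 0.0574) or 48-h replicate 1 (-0.12, adjusted p = 0.079). TOB1 (-0.45) and CCNG2 (-0.31), which restrain proliferation, fell and stayed above DMSO; without 7-day replicate 1 they were at -0.30 and -0.17. BTG1 (0.45), BTG2 (0.51), CDKN2D (0.68) and CDK6 (0.37) rose. CDKN1A, the inhibitor p21, had 61.5, 29.5 and 33.5 CPM against 25.5, 24.8 and 23 CPM (0.81, and 0.44 without replicate 1).

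**Figure D4:**
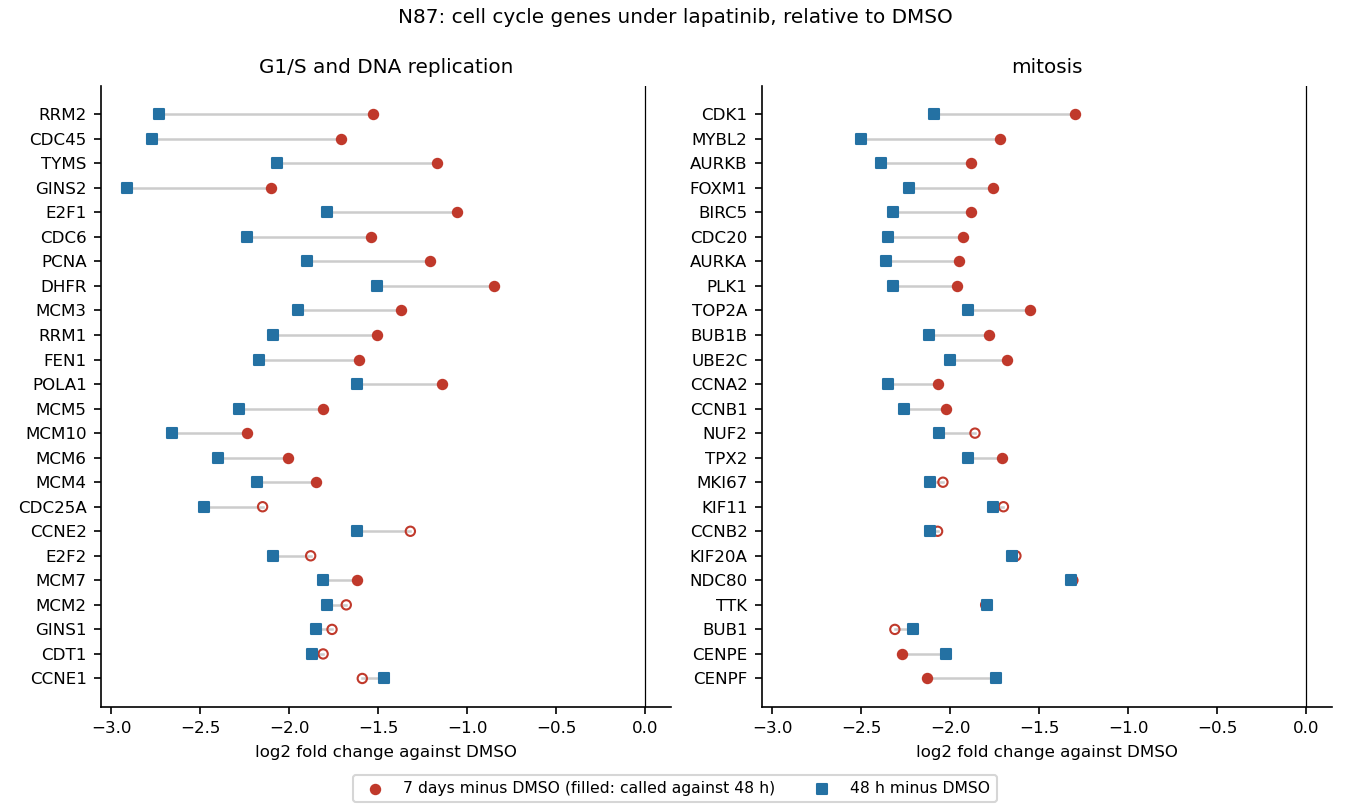
Log2 change against DMSO of each tested gene of the G1/S and mitosis lists, as a circle for lapatinib 7 days (filled where the gene was called between 7 days and 48 h) and a square for 48 h. Nearly all circles of G1/S genes lie above their squares, and both lie below 0.

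The ERBB family was changed in opposite directions. ERBB2 rose by 0.31 ± 0.04 on the log2 scale at 7 days over 48 h (adjusted p = 4.77e-06; values above). ERBB3, its partner without an active kinase of its own, fell, with 327, 305 and 299.6 CPM at 7 days against 377, 367 and 381 CPM at 48 h, and stayed above its DMSO mean of 132 CPM (log2 -0.27 ± 0.04, adjusted p = 3.09e-05). EGFR had 142, 129 and 137 CPM against 144, 155 and 154 CPM at 48 h and 349 CPM in DMSO (-0.15 ± 0.05, adjusted p = 0.0195), and was not called without 7-day replicate 1 or 2 or 48-h replicate 2 or 3 (-0.13 to -0.07). Of 14 tested receptors, ligands and regulators, 9 rose and 3 fell, with a median of 0.39; without 7-day replicate 1 these were 7 and 1, with a median of 0.31.

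Of the ligands, NRG4, EREG, AREG, HBEGF and TGFA rose, and in some of them 7-day replicate 1 lay far above the other libraries. BTC (0.19) and NRG1 (-0.72) did not pass. NRG4, a neuregulin that binds ERBB4, was even across libraries, with 30.4, 30.9 and 30.2 CPM at 7 days against 17.4, 22 and 19.8 CPM at 48 h and 10.3 CPM in DMSO (log2 0.62 ± 0.08, adjusted p = 5.49e-06). EREG, epiregulin, had 56.8, 20.8 and 22.2 CPM against 10.1, 11.4 and 11.8 CPM at 48 h, with all 7-day libraries above all 48-h libraries and replicate 1 above the other 7-day ones. Its log2 change was 1.64 ± 0.27 (adjusted p = 6.95e-05), and 1.01 (adjusted p = 4.28e-08) without replicate 1. AREG, amphiregulin, went to 0.45 (adjusted p = 0.0242) without that replicate, against 0.87 with it. HBEGF (1.02) and the feedback inhibitor ERRFI1 (0.47) were not called without it (0.47 and 0.14, adjusted p = 0.0646 and 0.27), and ERRFI1 was not called without 48-h replicate 1 (0.43, adjusted p = 0.0683). TGFA (0.16, and 0.14 with no call without 7-day replicate 3) and the receptor-restraining LRIG1 (0.69) rose. The sheddase ADAM17 (-0.20) was not called without 7-day replicate 1 (-0.12, adjusted p = 0.108) or 48-h replicate 1 or 2 (-0.13 and -0.15).

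Genes of the list for ERBB2 and its chromosomal neighbours did not move as a block. Of 12 tested, with ERBB2 itself among them, 6 rose and 4 fell, with a median of 0.09. Which of them lie in the amplified region of N87 was not tested. STARD3, a cholesterol transporter of late endosomes, had 1595, 1609.7 and 1588 CPM at 7 days against 1152, 1124 and 1132 CPM at 48 h (0.49 ± 0.04, adjusted p = 9.51e-10), with a DMSO mean of 1592 CPM. GRB7, an adaptor that binds ERBB2, had 2298, 2498 and 2293 CPM against 3393, 2893 and 3016 CPM (-0.39 ± 0.05, adjusted p = 3.72e-06), over a DMSO mean of 955 CPM. The transcription kinase CDK12 (-0.45) and the Mediator subunit MED1 (-0.37) fell. Among other receptor tyrosine kinases 4 rose and 2 fell of 14. FGFR2, a receptor for fibroblast growth factors, had 46, 43.6 and 46.2 CPM at 7 days against 18.4, 21.5 and 23 CPM at 48 h and 5.53 CPM in DMSO (1.11 ± 0.09, adjusted p = 3.43e-09), with the 3 groups apart. EPHB3, an ephrin receptor, fell (-1.08 ± 0.08, adjusted p = 8.7e-10) while EPHB2 rose (0.61). MET (0.28) and MST1R (0.23) rose by little.

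Transcripts that report MAPK signalling were divided. Of 19 tested, 7 rose and 4 fell, with a median of 0.22, and against DMSO the median was -0.35 at 7 days and -0.87 at 48 h. DUSP6, the phosphatase that switches off ERK, had 36.7, 30.3 and 34.1 CPM at 7 days against 33.9, 38.2 and 26.9 CPM at 48 h and 227 CPM in DMSO, and did not pass (0.05, adjusted p = 0.731). ETV4, an ETS factor induced by ERK, had 9.37, 9.02 and 8.17 CPM against 6.84, 5.47 and 5.35 CPM and 54.2 CPM in DMSO (0.59, adjusted p = 0.00107), while its relative ETV5 (-0.47) was not called without 7-day replicate 1 or 2 or 48-h replicate 2 or 3 (-0.40 to -0.36). The phosphatase DUSP4 had 36.7, 22.8 and 21.5 CPM against 11.5, 11.7 and 11.8 CPM (1.23, and 0.96 without replicate 1), and DUSP5 had 592, 256 and 316 CPM against 126, 199.6 and 162 CPM (1.27, and 0.88 without it). The call of FOSL1 (1.15, adjusted p = 0.00739) was lost without replicate 1 (0.27, adjusted p = 0.078), as was that of MYC (-0.35, and -0.07), which was not called without any 1 of the 48-h replicates either (-0.34 to -0.24). HMGA2 (-0.88) and SPRED2 (-0.51, and -0.32 without replicate 1) fell. Without replicate 1 the list had 8 higher and 2 lower of 19, with a median of 0.27. Of 20 immediate-early genes 8 rose and 3 fell, and without replicate 1 these were 11 and 4. EGR2 had 46.8, 41.4 and 40.7 CPM against 25.6, 27.2 and 19.5 CPM at 48 h (0.84 ± 0.12, adjusted p = 1.27e-05), and EGR1 (0.22) did not pass, but was called without replicate 1 (0.39, adjusted p = 0.000683). DUSP1 fell, with 134, 252 and 231 CPM against 369, 353 and 305 CPM (-0.75, and -0.46 without replicate 1).

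Genes that FOXO factors and reduced PI3K signalling raise had 5 higher and 5 lower of 18. These counts are not far above the shares of all tested genes (22.3% and 20.3%). PIK3IP1, an inhibitor of PI3K, had 82.7, 89 and 80.1 CPM at 7 days against 86.7, 79.5 and 81.6 CPM at 48 h, both well over 8.25 CPM in DMSO, and did not pass (0.02, adjusted p = 0.89). KLHL24, an adaptor for a ubiquitin ligase, had 40.1, 37.5 and 42 CPM against 78.2, 79.3 and 84.2 CPM at 48 h, and 17.4 CPM in DMSO (log2 -1.01 ± 0.06, adjusted p = 2.15e-11). The ubiquitin ligase FBXO32 had 57, 57.7 and 54.2 CPM against 109, 96.8 and 103 CPM and 11.6 CPM in DMSO (-0.87 ± 0.06, adjusted p = 3.93e-10). In both genes the 7-day level lay between the 48-h and DMSO levels. PDK4, a brake on pyruvate entry into mitochondria, went further, with 17.4, 11.2 and 14.4 CPM against 6.42, 5.67 and 4.37 CPM and 0.707 CPM in DMSO (1.41 ± 0.20, adjusted p = 9.55e-06). FOXO1 (0.28) lost its call without 7-day replicate 1 (0.19) or 48-h replicate 3 (0.25).

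Of 15 BCL2 family genes 3 rose and 1 fell, and without 7-day replicate 1 these were 2 and 0. Of all tested genes 22.3% rose and 20.3% fell. The pro-death BMF (0.41) and BID (0.37) rose; BMF was not called without 48-h replicate 2 (0.34, adjusted p = 0.0547) and was at 0.63 without 48-h replicate 1. The protective BCL2L2 (-0.15) was not called without any 1 of the 6 libraries (-0.14 to -0.09). BCL2L11 (BIM; 0.28) did not pass, and MCL1 (0.26) lost its call without 7-day replicate 1 (0.11, adjusted p = 0.0688) and was at 0.42 without 7-day replicate 2. Among 18 targets of p53, 6 rose and 4 fell, against the same shares of all tested genes. GDF15, a secreted stress cytokine, had 329, 235 and 241 CPM at 7 days against 65.2, 66.2 and 68.4 CPM at 48 h and 87.5 CPM in DMSO (2.01 ± 0.09, adjusted p = 1.12e-12, 1.89 without replicate 1). TP53INP1, which acts in autophagy and cell death, had 57.9, 65.8 and 67.8 CPM against 104, 103 and 115 CPM (-0.76 ± 0.06, adjusted p = 8.56e-09), and MDM2, the ubiquitin ligase of p53, fell by 0.33.

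Epithelial identity genes changed in kind and not in 1 direction. Of 12 gastric and secretory genes tested, 5 rose and 1 fell (5 and 3 without 7-day replicate 1). The summed level of all 22 genes of the list was 2899 to 3059 CPM at 7 days, 2042 to 2191 CPM at 48 h and 795 to 823 CPM in DMSO. A sum is set by its most abundant members, and the genes given with levels below are a small part of it. PSCA, a lipid-anchored surface antigen of stomach, prostate and bladder epithelium, had 323, 271 and 246 CPM against 97, 86.3 and 84.4 CPM at 48 h and 8.18 CPM in DMSO (log2 1.65 ± 0.08, adjusted p = 1.41e-12). The membrane mucin MUC13 had 31, 33.5 and 31.7 CPM against 10.9, 12.8 and 12.8 CPM (1.39 ± 0.10, adjusted p = 1.66e-09), and MUC1 had 13.9, 13.6 and 14.9 CPM against 7.79, 10.8 and 8.85 CPM (0.63, adjusted p = 0.00495). MUC20 (0.55) and the siderophore binder LCN2 (0.38) rose; MUC20 has the pseudogene MUC20P1, so its count is uncertain. AGR2, a disulfide isomerase needed for mucin folding, fell, with 21.8, 25.4 and 26.1 CPM against 48.3, 45.9 and 45.1 CPM (-0.93 ± 0.07, adjusted p = 2.06e-09). In the intestinal list 3 rose and 3 fell of 11. Beside CDH17, the microvillus protein VIL1 (2.3-fold) and TSPAN8 (0.24) rose, and the adhesion molecules CEACAM5 (-1.20) and CEACAM6 (-0.47) and KRT20 (-0.25, and -0.13 with no call without 48-h replicate 1) fell. The intestinal factor CDX2 (-0.06) did not pass, and CDX1, FABP1, REG4, ATOH1 and CLCA1 were at 0 in all 9 libraries.

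Of 19 keratins of simple epithelium and junction genes 6 rose and 8 fell, with a median of 0.03. OCLN, a tight junction protein, had 50.2, 45.9 and 50.1 CPM at 7 days against 98.8, 107 and 108 CPM at 48 h and 97.1 CPM in DMSO (-1.09 ± 0.06, adjusted p = 6.51e-12). TJP1, its partner ZO-1, had 227, 252 and 234 CPM against 448, 434 and 441 CPM (-0.89 ± 0.04, adjusted p = 8.29e-13), and desmoplakin DSP had 385, 279.9 and 306 CPM against 719.8, 728 and 768 CPM (-1.19 ± 0.07, adjusted p = 1.16e-10). All 3 were lower at 7 days than in DMSO. Plakoglobin JUP (-0.51), KRT23 (-1.25), KRT18 (-0.43) and KRT8 (-0.34) fell, while E-cadherin CDH1 (0.32), KRT7 (0.33), KRT19 (0.33) and claudins CLDN3 (0.50) and CLDN7 (0.24) rose.

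**Figure D5:**
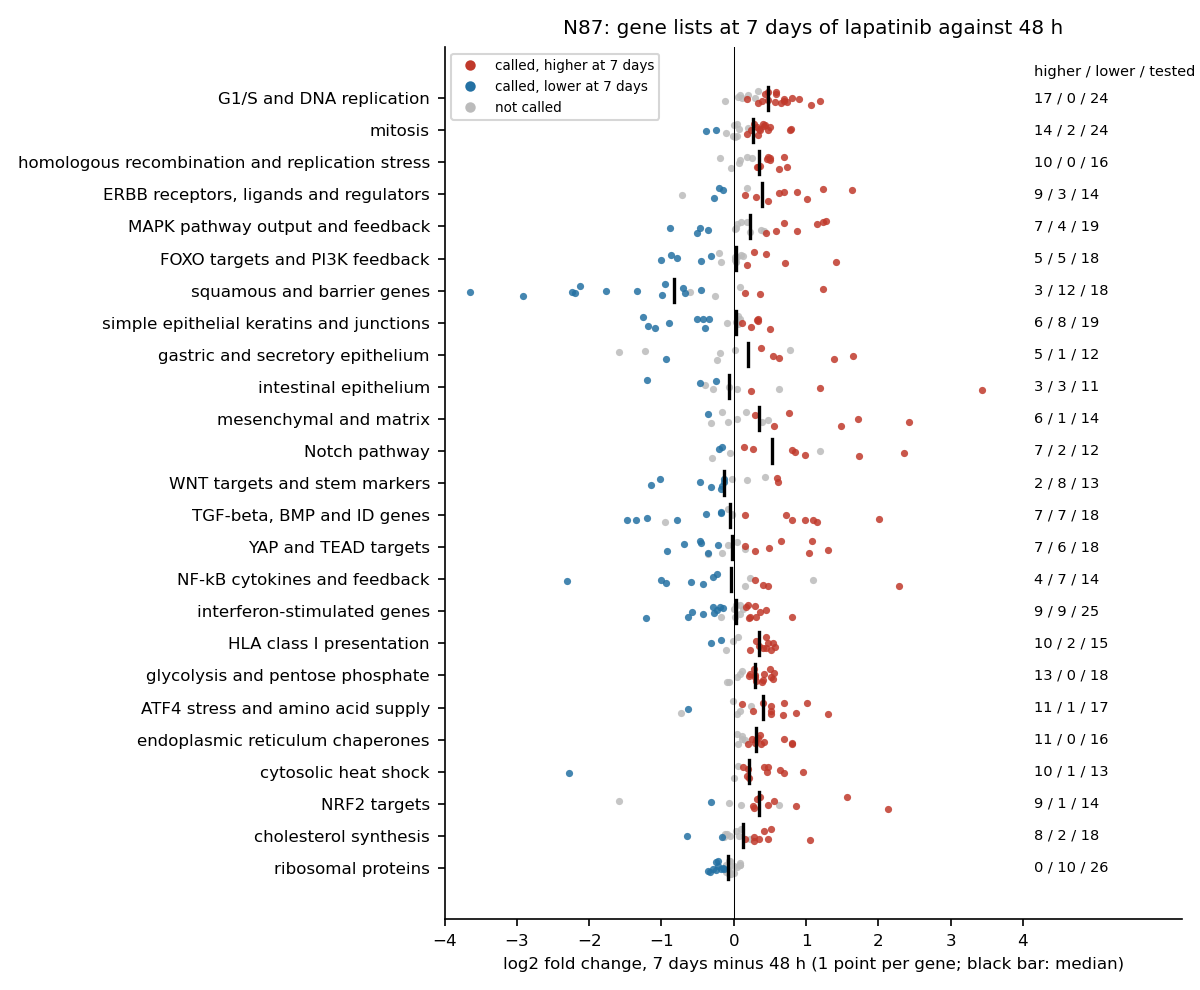
Log2 change at 7 days against 48 h of lapatinib for each tested gene of 25 lists, with a black bar at the list's median and, at the right, the numbers called higher, called lower and tested. The median of squamous and barrier genes lies lowest at -0.82, and that of ribosomal proteins is at -0.07. The medians above 0.25 are those of the Notch, G1/S, ATF4, ERBB, homologous recombination, HLA class I, NRF2, mesenchymal, endoplasmic reticulum chaperone, glycolysis and mitosis lists.

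Glycolysis genes were higher at 7 days than at 48 h, and lower than in DMSO. Of 18 tested genes of glycolysis and the pentose phosphate path, 13 rose and 0 fell, with a median of 0.30, and the sum was 6429 to 7031 CPM at 7 days, 5370 to 5617 CPM at 48 h and 11764 to 12355 CPM in DMSO. Pyruvate kinase PKM had 1519, 1575 and 1542 CPM against 1073, 1017 and 1056 CPM at 48 h and 2969 CPM in DMSO (0.56 ± 0.04, adjusted p = 4.88e-10). Phosphoglycerate kinase PGK1 (0.55), aldolase ALDOA (0.51), enolase ENO1 (0.50) and lactate dehydrogenase LDHA (0.42) rose, and GAPDH (0.09) did not pass, but was called without 7-day replicate 1 (0.13, adjusted p = 0.0352). Of 15 hypoxia genes 5 rose and 3 fell; the angiogenic factor VEGFA (0.76), the glycolytic regulator PFKFB3 (0.74) and the lactate exporter SLC16A3 (0.64) were among the higher ones.

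Lipid genes were divided. In cholesterol synthesis 8 rose and 2 fell of 18, with a median of 0.13; the squalene synthase FDFT1 rose by 0.48. In fatty acid synthesis 1 rose and 5 fell of 13, and without 7-day replicate 1 these were 2 and 2. The desaturase SCD had 57.3, 62.1 and 59 CPM against 93.3, 81.3 and 84.5 CPM at 48 h and 732 CPM in DMSO (-0.54 ± 0.06, adjusted p = 2.05e-07), while FASN (-0.10) was not called without any 1 of the 6 libraries (-0.11 to -0.03). In fatty acid oxidation and among PPAR targets 10 rose and 2 fell of 16. PPARG, a nuclear receptor for lipids, had 61.7, 57.4 and 60 CPM against 32.5, 38.2 and 35.4 CPM (0.76 ± 0.07, adjusted p = 6.51e-08); the dehydrogenase ACADM (0.63) and the mitochondrial carrier UCP2 (0.53) rose.

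Stress and folding genes were mostly higher at 7 days than at 48 h, and most of these lists stayed below DMSO. Against DMSO the median at 7 days was -0.39 for the ATF4 list and -0.54 for endoplasmic reticulum chaperones. It was -0.47 for cytosolic heat shock genes and, on the other side, 0.38 for NRF2 targets. Of 17 genes of the ATF4 response and amino acid supply 11 rose and 1 fell, with a median of 0.40. The pseudokinase TRIB3 had 35, 28.8 and 29.7 CPM at 7 days against 15.4, 11.1 and 11.7 CPM at 48 h and 25.9 CPM in DMSO (1.31 ± 0.11, adjusted p = 1.01e-08). PHGDH, the first enzyme of serine synthesis (0.86), and the amino acid transporter SLC7A5 (0.69) rose; the factor ATF4 (-0.01) did not pass. Of 16 chaperones of the endoplasmic reticulum 11 rose and 0 fell, with a median of 0.31, among them XBP1, a factor of the unfolded protein response (0.80), SDF2L1 (0.81) and HSPA5, or BiP (0.37). Cytosolic heat shock genes had 10 higher and 1 lower of 13. HSPA1A had 340.3, 319.7 and 308 CPM against 183, 149.7 and 166 CPM (0.96 ± 0.06, adjusted p = 1.03e-10), with the near-identical HSPA1B at 0.69, so their shares are uncertain. CRYAB, a small heat shock protein, fell (-2.28). Among NRF2 targets 9 rose and 1 fell of 14; the glutathione peroxidase GPX2 had 534, 557 and 527 CPM against 311, 296 and 286 CPM at 48 h and 143 CPM in DMSO (0.86 ± 0.04, adjusted p = 3.34e-12). AKR1C3 (1.56) and AKR1C2 (2.14), which resemble each other, and NQO1 (0.48) rose, and the heme oxygenase HMOX1 fell (-0.31, and -0.50 without 7-day replicate 1), a call lost without any 1 of the other 5 libraries (-0.28 to -0.17).

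Ribosomal proteins, respiratory chain and mitochondrial genome transcripts moved by little. Of 26 ribosomal protein genes 10 fell and 0 rose, with a median of -0.07. The median stayed below 0 under the other scalings and filters, and was 0.04 without 48-h replicate 1, with 6 lower and 4 higher; without 7-day replicate 1 it was -0.01, with 6 lower and 0 higher. RPL7 had the largest of these decreases, at -0.35. Ribosome biogenesis genes had 8 higher and 1 lower of 17, with a median of 0.02. In the nuclear respiratory chain 2 rose and 2 fell of 20 (6 and 2 without 7-day replicate 1), and of 13 transcripts of the mitochondrial genome MT-ND2 rose (0.36) and MT-ATP8 fell (-0.61). Lysosome and autophagy genes had 6 higher and 7 lower of 23, against 22.3% and 20.3% of all tested genes. CTSS, a protease of antigen presentation, had 72.1, 75.6 and 70.8 CPM against 38.1, 37.3 and 37.1 CPM at 48 h and 10.3 CPM in DMSO (0.95 ± 0.07, adjusted p = 8.61e-10), and WIPI1, which acts in autophagosome formation, fell (-0.88). Of 12 histone genes 3 rose and 6 fell. The variants H2AX (0.76) and H2AZ1 (0.50) rose, and H2AC6, a histone of the replication-dependent clusters, fell (-0.38).

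Interferon-stimulated genes were balanced at 9 higher and 9 lower of 25. IFIT2, an antiviral RNA binder, had 26.7, 30.3 and 30.9 CPM at 7 days against 70.4, 62.7 and 68.9 CPM at 48 h and 40.4 CPM in DMSO (-1.21 ± 0.08, adjusted p = 3.83e-10), and STAT2 fell by 0.58; IFI44L rose (0.80). In HLA class I presentation 10 rose and 2 fell of 15, with a median of 0.35: HLA-C (0.51), HLA-B (0.41), beta-2-microglobulin B2M (0.31), the immunoproteasome subunit PSMB10 (0.57) and the peptidase ERAP2 (0.55) rose. HLA genes resemble each other, so their shares of reads are uncertain. NF-kB cytokines and feedback genes had 4 higher and 7 lower of 14. NFKBIA, the inhibitor of NF-kB, had 11.5, 10.7 and 9.74 CPM against 22.8, 21.6 and 19.4 CPM (1.99-fold lower, adjusted p = 2.04e-07), TNFAIP3 fell by 0.93, and the cytokine IL32 had 1.21, 1.07 and 0.943 CPM against 6, 4.97 and 5.06 CPM (-2.30 ± 0.24, adjusted p = 2.54e-07). In the complement list 3 rose and 1 fell of 10. The membrane regulator CD55 fell (-0.56).

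Contractile and matrix genes rose in part, with 6 higher and 1 lower of 14 mesenchymal and matrix genes. TAGLN, an actin-binding protein, had 49.3, 45.4 and 45.6 CPM at 7 days against 16.2, 15.9 and 17.8 CPM at 48 h and 10.5 CPM in DMSO (1.49 ± 0.08, adjusted p = 1.07e-11). Vimentin, VIM, rose at a low level, with 3.07, 3.06 and 2.04 CPM against 1.05, 0.398 and 0.972 CPM (1.72). Of 18 YAP and TEAD targets 7 rose and 6 fell. CCN2, connective tissue growth factor, had 1006, 1076 and 1049 CPM against 410.0, 541 and 527 CPM and 176 CPM in DMSO (1.08 ± 0.09, adjusted p = 9.8e-09), tissue factor F3 rose by 1.30, and PTPN14, a repressor of YAP, fell by 0.92. ANKRD1 (0.66) lost its call without 7-day replicate 1 (0.40) or 48-h replicate 1 (0.57).

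Developmental signalling gave clear single genes. Of 18 TGF-beta, BMP and ID genes 7 rose and 7 fell. BMP7 had 112, 101 and 103 CPM at 7 days against 246, 239 and 244 CPM at 48 h, and a mean of 101 CPM in DMSO (-1.20 ± 0.05, adjusted p = 4.92e-13). The 7-day level of BMP7 was at that of DMSO. BAMBI, a decoy receptor for TGF-beta, had 87.3, 102 and 98.8 CPM against 279.9, 266 and 249 CPM and 287 CPM in DMSO (-1.47 ± 0.06, adjusted p = 1.97e-13); TGFB1 (0.99) and ID1 (0.72) rose. In the WNT list 2 rose and 8 fell of 13, with a median of -0.13. AXIN2, the feedback target of WNT signalling, had 176, 350.2 and 345 CPM against 669.6, 616 and 623 CPM at 48 h and 601 CPM in DMSO (-1.14 ± 0.15, adjusted p = 3.37e-06, -0.82 without replicate 1), and NKD1 (-1.02) and TCF7 (-0.46) fell. In the Notch list 7 rose and 2 fell of 12, with a median of 0.53, and without replicate 1 these were 6 and 2, with a median of 0.43. NRARP, a feedback target of Notch, had 647, 298 and 329 CPM against 112, 152 and 124 CPM (1.73 ± 0.19, adjusted p = 3.64e-07, 1.34 without replicate 1). The ubiquitin ligase DTX4 was even, with 165, 167 and 164 CPM against 89.8, 77 and 85 CPM at 48 h and 49.6 CPM in DMSO (0.98 ± 0.05, adjusted p = 2.3e-11). The coactivator MAML2 (0.80) and HES4 (0.85) rose, and NOTCH1 (0.27) lost its call without 7-day replicate 1 (0.12) or 48-h replicate 2 (0.26).

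Genes often named in drug-tolerant cells were divided, with 7 higher and 5 lower of 15. The demethylase KDM5B, a marker of slow-cycling cells, had 150.2, 131 and 136 CPM at 7 days against 217, 199 and 222 CPM at 48 h and 131 CPM in DMSO (-0.61 ± 0.05, adjusted p = 1.8e-08), and KDM5A fell by 0.39. ALDH3B1 (0.56), the lipid peroxidase GPX4 (0.51) and the transferrin receptor TFRC (0.58) rose, and ferritin FTH1 (-0.44) and ALDH2 (-0.73) fell. Among 11 genes of drug transport and metabolism 3 rose and 3 fell, against 22.3% and 20.3% of all tested genes. The export pump ABCC3 had 176, 183 and 202 CPM against 98.7, 101 and 103 CPM at 48 h and 168 CPM in DMSO (0.89 ± 0.05, adjusted p = 7.83e-11). The aryl hydrocarbon receptor repressor AHRR fell (-0.83), its enzyme target CYP1A1 (0.51) did not pass, and TIPARP (0.65) was not called without 7-day replicate 1 (0.04) or 48-h replicate 1 or 3 (0.66 in both).

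The same interval was sampled in 5 other lines, each with its own drug: vemurafenib in A375, GSK1120212 in A549, crizotinib in H3122, erlotinib in PC9 and BGJ398 in RT112. In a fit of the 36 libraries of the drug alone at 7 days and 48 h, the change in N87 differed from the mean change of the other 5 lines for 4866 of 18761 genes (25.9%), above it for 2512 (13.4%) and below it for 2354 (12.5%). Of 18 glycolysis genes 15 had a change in N87 above the mean of the other lines and 1 below. The list's median was 0.29 in N87, against -0.03 in A375, -0.04 in A549, -0.37 in H3122, -0.13 in PC9 and -0.34 in RT112. Of 18 cholesterol synthesis genes 13 were above the other lines and 0 below, and of 20 respiratory chain genes 12 and 0. Both medians in N87 were near 0. For cholesterol synthesis it was 0.11 in N87, against 0.02 in A375, -1.12 in A549, -0.32 in H3122, -0.01 in PC9 and -0.34 in RT112. For the respiratory chain it was -0.00 in N87, against -0.14 in A375, -0.17 in A549, -0.49 in H3122, -0.14 in PC9 and -0.27 in RT112. For G1/S genes 16 of 24 were above and 0 below, but single lines lay on both sides, at 0.46 in N87 against 0.46 in A375, -0.23 in A549, -1.73 in H3122, 1.24 in PC9 and -0.85 in RT112. Mitosis genes had 21 of 24 above and 0 below, again with lines on both sides. Their median was 0.25 in N87, against 1.39 in A375, -0.54 in A549, -3.72 in H3122, 1.55 in PC9 and -1.78 in RT112. For squamous and barrier genes few differences between lines passed: 2 of 18 were above and 1 below the other lines' mean, and medians were -0.84 in N87, against 0.00 in A375, -0.92 in A549, 0.41 in H3122, 0.38 in PC9 and -0.39 in RT112. Of 19 MAPK output genes 4 had a change in N87 below the mean of the other lines and 0 above. Drug, line and dose differ together between these experiments and cannot be told apart.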

How the data were processed

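RNA of N87 cells was sequenced after lapatinib for 7 days, lapatinib for 48 h and DMSO, 3 libraries each (RNeasy micro kit and NEBNext Ultra libraries, per the labels' protocols). The deposited table holds expected counts per gene, which the authors made with RSEM 1.2.12 and Bowtie2 2.2.1 on hg19, per the submitters' processing notes; no source used here gives the annotation. Of 53893 gene IDs 37404 took a symbol from GENCODE v29; IDs without one hold 2.27% of N87 counts. The 876 IDs that share a symbol are shown by ID. Between 9.81% and 13.58% of values were not whole, and counts were rounded.

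From these, edgeR 4.0.16 (R 4.3.3, limma 3.58.1) was run with TMM scaling, filterByExpr and quasi-likelihood tests on all 15 N87 libraries, which share 1 estimate of the spread, and on the 36 libraries of 6 lines for the difference between lines. A gene was called at an adjusted p under 0.05 (Benjamini-Hochberg over all tested genes), and a second rule added a log2 change of at least 1. SE is the log2 change divided by the square root of its F value. Depth, 6.47 to 12.41 M counts, limits precision for genes of a few CPM. The strand used in counting is not stated, so reads of a gene and its antisense partner cannot be told apart.

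Genes were named by these rules: the 15 with the largest change in each direction among called genes with at least 5 CPM in the higher group and no overlap between groups, pseudogenes and genes without a symbol left out; members of 47 lists (842 genes, 10 not in the table); ERBB2, ERBB3, EGFR, MKI67, CCND1, DUSP6, PIK3IP1 and MUC1; and up to 5 in each direction that changed in N87 opposite to all other lines. The lists and the genes in them were chosen with earlier results of these data known. Lists are described by counts and medians with no test of their own. Some of their members are not reported here. The alternatives were RLE scaling, library totals, DESeq2 1.42.0, other filters, fewer libraries, a replicate block and leaving out each library. On simulated data the 7-day fit of 15132 genes called 36%, 86% and 100% of genes changed 1.25-, 1.5- and 2-fold. The fit between lines called 14%, 70% and 74% of such genes, and 90% of those changed 4-fold. In these data 50 genes of each size were changed and no library stood apart, unlike in the measured libraries.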

Additional observations from a re-analysis of the deposited data

Results flagged for a closer look

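The change in N87 at 7 days against 48 h differed from the mean change of the other 5 lines for 4866 genes in the test of that difference (edgeR's quasi-likelihood test, Benjamini-Hochberg). Of these, 150, called in N87 with at least 5 CPM in the higher group, had a sign there opposite to every other line. In N87 81 were higher and 69 lower. A call in the other lines was not required, and some changes there were small (RASIP1 0.04 in RT112, SLC5A1 -0.11 in H3122). How many genes would meet this rule by chance was not tested. The 10 with the largest differences under the naming rule are given with the log2 difference, N87 minus the mean of the other lines, and its SE. Line and drug differ together and cannot be told apart. A change in a line that hardly has a gene's transcript is not a measurement. Of the 150 genes, 16 had fewer than 30 counts over the 6 libraries of at least 1 other line, and these include 8 of the 10 named. IL32 and HOXA-AS2 did not.

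IL32, the cytokine described above, fell by 2.30 in N87 and changed by 1.76 in A375, 0.54 in A549, 2.08 in H3122, 1.07 in PC9 and 2.65 in RT112. Its difference of -3.93 ± 0.27 (adjusted p = 5.29e-13) was the largest in size of the 10. It was measured on 170 counts at 7 days and 28 at 48 h in RT112, and on 1488 and 313 in H3122. HOXA-AS2, an antisense RNA of the HOXA cluster, had 5.25, 7.95 and 9.51 CPM in N87 at 7 days against 2.74, 1.49 and 3.6 CPM at 48 h. It rose by 1.52 there and changed by -0.15 to -1.94 in the other lines (difference 2.28 ± 0.23, adjusted p = 1.58e-09).

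COLCA1, a gene of a colorectal cancer risk locus, had 15.6, 15.9 and 15.9 CPM in N87 at 7 days against 4.32, 3.38 and 4.76 CPM at 48 h. It rose by 1.92, and the difference from the other lines was 3.27 ± 0.33 (adjusted p = 1.85e-09), with 2 counts at 7 days and 4 at 48 h in A375. SLC5A1, the sodium-glucose transporter of the gut, had 6.38, 8.26 and 8.88 CPM against 2.21, 1.99 and 2.24 CPM at 48 h in N87 (difference 2.66 ± 0.75, adjusted p = 0.00774), and at most 2 counts in any group of A375, PC9 and RT112. ENSG00000261344 (2.87 ± 0.37, adjusted p = 3.39e-07) and the pseudogene MUC20P1 (2.10 ± 0.49, adjusted p = 0.00138) also rose in N87. GJA3, a gap junction protein (-1.93 ± 0.38, adjusted p = 0.000191), PODXL2, a membrane sialomucin (-1.79 ± 0.24, adjusted p = 5.84e-07), and RASIP1, a RAS-binding protein (-1.75 ± 0.31, adjusted p = 5.78e-05), fell in N87.

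ARPIN, an inhibitor of the actin-nucleating Arp2/3 complex, had 7.19, 7.49 and 7.54 CPM in N87 at 7 days against 12.6, 14 and 12 CPM at 48 h. It fell by 0.80, and its difference from the other lines was -1.62 ± 0.48 (adjusted p = 0.0165). RT112 had 1 count at 7 days and 0 at 48 h over its 6 libraries, so its change there is no measurement. Without RT112 replicate 1 and 7-day H3122 replicate 1 the remaining RT112 libraries were all at 0, and the call was lost (-1.27).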

How the results depend on the processing

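The 30 genes with the largest changes kept their direction and call under the 15 alternatives of the 7-day against 48-h comparison, except that 7SK and H19 could not be tested among protein-coding genes. No called change of these or of a list member between 7 days and 48 h turned round under an alternative that was run on it; changes that did not pass could turn, as did KRT17 without 7-day replicate 1 (-0.26) and DUSP6 without 48-h replicate 3 (-0.03). The 6553 calls became 6613 with RLE scaling, 6550 with library totals, 5325 with DESeq2, 6604 with no filter on low counts, 5743 with the 6 libraries alone and 6122 among protein-coding genes, an alternative chosen after seeing the data. Of the calls, 80.3% were also made in the same direction by DESeq2, 95% with RLE scaling and 81.2% without 7-day replicate 1. The calls of at least 2-fold, 843 in all, 367 higher and 476 lower, fell to 413, 194 and 219 where at least 5 CPM in 3 libraries were required, and the lower ones to 277 among protein-coding genes; both alternatives test fewer genes. Leaving out 1 library gave 5710 to 6330 calls (3198 to 3971 higher, 2209 to 2792 lower) and 798 to 900 of at least 2-fold (378 to 439 higher, 379 to 522 lower). It gave 10353 to 10755 calls at 7 days against DMSO, 10276 to 10624 at 48 h against DMSO and 3963 to 4400 against the other lines, which became 4513 to 5262 without a line and 5343 without RT112 replicate 1 and 7-day H3122 replicate 1. DESeq2 lost the calls of 46 named genes and RLE scaling of 16. Deviations of the 7-day and 48-h libraries from their group means hardly correlated by replicate number (0.01, -0.00 and 0.06). Numbers 1 and 3 correlated best with their own and 2 did not. Whether equal numbers mark paired libraries is not stated, and these correlations cannot settle it. With the replicate block there were 6398 calls (3350 higher, 3048 lower), 820 of at least 2-fold, 10515 at 7 days against DMSO and 10477 at 48 h against DMSO. List medians kept their sign for squamous (-0.93 to -0.71), G1/S (0.45 to 0.61), mitosis (0.24 to 0.35), glycolysis (0.28 to 0.38) and Notch genes (0.19 to 0.61), and not for ribosomal proteins (-0.10 to 0.04, above 0 without 48-h replicate 1). Depth limits genes of a few CPM most in 7-day replicate 2, the library of 6.47 M counts.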
